A study of Mus musculus with 2 samples.

Results

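The guanylate-binding protein family of the mouse was examined in aortic macrophages of dyslipidemic mice with PDR and SKYD syndrome. Its members were the rows of the gene table named Gbp2, Gbp2b, Gbp3, Gbp5 and Gbp7, which lie together on chromosome 3, and Gbp4, Gbp6, Gbp8, Gbp9 and Gbp10, which lie together on chromosome 5. These are 10 of the 54532 genes in the table. All mice were male ApoE-/- animals on a C57BL/6J background, labelled as 6 weeks old. The label states a loss of apolipoprotein E, which raises plasma lipids, for both groups. The Apoe gene nevertheless had reads in both, with an FPKM of 345 in PDR and 67.7 in SKYD, from 17336 and 3618 reads. These are reads per gene, which do not show whether an intact product is made, and the fold between the groups was 5.10. The PDR (phlegm-dampness retention) mice received 4 weeks of high-fat diet. The SKYD (spleen and kidney Yang deficiency) mice first had 4 weeks of the antithyroid agent propylthiouracil by gavage (10 mg/kg daily) and after it 2 weeks of high-fat diet. The SKYD schedule was thus the longer one, and age at sampling may differ between the groups. Syndrome, drug, length of diet and length of the schedule therefore cannot be told apart. Cells of digested aortas were sorted on F4/80 and CD11b, and the cells of 5 mice were pooled into 1 RNA library a group. With no replicate libraries, no p-value was computed, and every difference is between 1 library and another.

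Guanylate-binding proteins are large GTPases of the dynamin superfamily. Macrophages make them in response to interferons, above all interferon gamma. They assemble on the vacuoles and surfaces of intracellular bacteria and parasites, in mice together with the immunity-related GTPases and the ATG8 conjugation machinery, and they promote inflammasome activity in infected cells. Some members end in a CaaX box, a short motif at which a lipid is attached that holds the protein on membranes.

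The reads on genes came to 23086889 for PDR and 25427863 for SKYD. Reads of each gene were recovered from its FPKM (fragments scaled by gene length and library size), its length and the size of the library. Intervals are 95% exact intervals of these reads. They cover counting error only, because amplified reads are not independent molecules and the spread between mice is not in them. Differences are given as log2(FPKM + 1) in PDR minus that in SKYD, a scale that understates the change of low genes. Counts of genes past 2-fold, or within it, are on this scale and mean a difference above 1 or below -1. The ratio of FPKM is given beside the differences as a fold, and a low gene can exceed 2 in that ratio without being counted.

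The 5 members on chromosome 3 had a promoter window in the RefSeq table for GRCm38.p6, and Gbp4, Gbp6, Gbp8, Gbp9 and Gbp10 had none there. Each window runs from 250 bases before a gene start to 50 bases after it. The stretches that hold the motif matches nearest to the start are printed because Gbp2, Gbp3 and Gbp2b lie among them. These 3 had the largest differences of the family on the log2(FPKM + 1) scale. By the ratio of FPKM, Gbp10 stood above Gbp3, with folds of 7.61 and 5.37. The interval of the Gbp10 fold, 4.24 to 14.8 with 13 reads in SKYD, holds that of Gbp3, so their order is uncertain. Capitals mark matches, on either strand, to the interferon gamma activated site TTCNNNGAA or to the interferon response element GAAANNGAA, whose reverse complement is TTCNNTTTC.
Gbp2 (chr3:142620489-142620618, plus strand): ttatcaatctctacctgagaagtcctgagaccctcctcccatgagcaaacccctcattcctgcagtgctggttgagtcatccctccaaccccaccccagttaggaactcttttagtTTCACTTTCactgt
Gbp2b (chr3:142594597-142594724, plus strand): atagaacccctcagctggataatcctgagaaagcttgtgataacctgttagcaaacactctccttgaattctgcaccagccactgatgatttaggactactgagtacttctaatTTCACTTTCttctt
Gbp3 (chr3:142559890-142560019, plus strand): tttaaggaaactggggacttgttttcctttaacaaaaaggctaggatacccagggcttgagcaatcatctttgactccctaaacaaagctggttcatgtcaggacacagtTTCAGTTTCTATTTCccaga
Gbp5 (chr3:142496766-142496895, plus strand): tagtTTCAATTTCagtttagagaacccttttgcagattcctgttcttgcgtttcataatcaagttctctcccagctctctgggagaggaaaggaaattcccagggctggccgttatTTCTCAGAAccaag
Gbp7 (chr3:142530168-142530297, plus strand): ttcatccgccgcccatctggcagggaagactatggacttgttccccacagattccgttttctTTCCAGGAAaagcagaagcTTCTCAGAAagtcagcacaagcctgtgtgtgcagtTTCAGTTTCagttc
All 5 members had a match to the interferon response element, which 8.56% of all 32851 promoter windows hold. Gbp5 and Gbp7 also had 2 matches each to the activated site, which 8.30% of the windows hold. Both motifs occurred together in 1.07% of the windows. In Gbp2 the response element began 58 bases before the start, in Gbp2b 136 bases, in Gbp7 52 bases and in Gbp5 164 bases. In Gbp3 a pair of overlapping matches began 44 and 38 bases before the start, and the other window of Gbp3 had no match to either motif. The activated sites of Gbp7 began 106 and 87 bases before its start. Those of Gbp5 began 52 and 245 bases before, the farther one outside the printed stretch. By the gene models of GENCODE vM21, the stretches of Gbp2b, Gbp3 and Gbp7 lie upstream of the gene. That of Gbp5 lies in an intron of Gbp5, and the RefSeq start it precedes is 2956 bases inside the gene start of the table. The last 17 bases of the Gbp2 stretch lie in the first exon of a model that starts earlier than the RefSeq one. A match describes letters in a window and is not a measured binding site.

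The family was higher in the PDR library. Reads on the 10 members made up 0.101% of all reads on genes in PDR (95% interval 0.0993 to 0.102%) and 0.0193% in SKYD (0.0187 to 0.0198%). That is 23223 and 4896 reads, and the share in PDR was 5.22 times that in SKYD (5.07 to 5.39). The part on chromosome 3 was 7.12 times higher in PDR and the part on chromosome 5 was 2.15 times higher. In these bulk libraries, more cells of a type and more RNA per cell cannot be told apart.

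Other cell markers moved with this result. All 6 of the 6 B cell markers with mean FPKM of at least 1 passed 2-fold toward PDR, and the list of 7 went from 691 RPM (reads per 1000000 reads on genes) in SKYD to 3703 in PDR, with Cd79b the most abundant by mean FPKM, the measure of abundance in all lists here. All 8 hepatocyte markers were higher in PDR by more than 2-fold, from 702 to 2369 RPM, with Apoa2 the most abundant. Of the 11 effector T and NK cell markers, 8 were higher by more than 2-fold, from 258 to 740 RPM, led by Gzma. Klrg1, Tbx21 and Prf1 among these 8 had an FPKM below 1 in SKYD. The monocyte list of 5 went from 6337 to 11712 RPM, led by Chil3, and the neutrophil list of 11 from 2416 to 3348, led by S100a9. In the other direction, the macrophage list of 14 went from 62880 RPM in SKYD to 33756 in PDR, with 6 markers more than 2-fold lower in PDR and Lyz2 the most abundant. Cd163, 1 of these 6, reached the mean FPKM of 1 through SKYD alone. Lyz2 had 1359594 of the 1598902 reads of this list in SKYD and 686737 of 779331 in PDR. The sum thus mostly followed Lyz2. Of the 14 markers, 12 were lower in PDR, among them Adgre1, with an FPKM of 93.3 in SKYD and 87.3 in PDR. The other 2 were higher in PDR, Csf1r from 44.9 in SKYD to 57.7 and Fcgr1 from 35.3 to 51.9. The T cell list of 8 went from 2981 RPM in SKYD to 724 in PDR, led by Cd8b1, and the dendritic cell list of 8 from 401 to 217, led by Cd209a. Of the 6 compared dendritic cell markers, 5 were lower in PDR. Cd209a went from 6596 reads in SKYD to 1575 in PDR, where the whole list had 10208 and 5006. Ccr7, the next most abundant, went the other way, with an FPKM of 30.1 in SKYD and 56.7 in PDR. No marker of these 8 lists was at 0 in either library. Their part in the higher Gbp reads was not tested.

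Fibroblast and smooth muscle markers were lower in PDR, with 69.3 RPM there and 257 in SKYD. Of the 3 compared, 2 were more than 2-fold lower in PDR, and Lum, 1 of these 2, reached the mean FPKM of 1 through SKYD alone. Dcn was the most abundant, and Myh11, Tagln and Cnn1 of the 10 were at 0 in both libraries. Endothelial markers summed to 31.3 RPM in PDR and 20.8 in SKYD, with Pecam1 the most abundant and none of the 8 at 0. Erythroid markers summed to 17077 and 22067, led by Hba-a1, with none of the 6 at 0 and none past 2-fold.

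**Figure D1:**
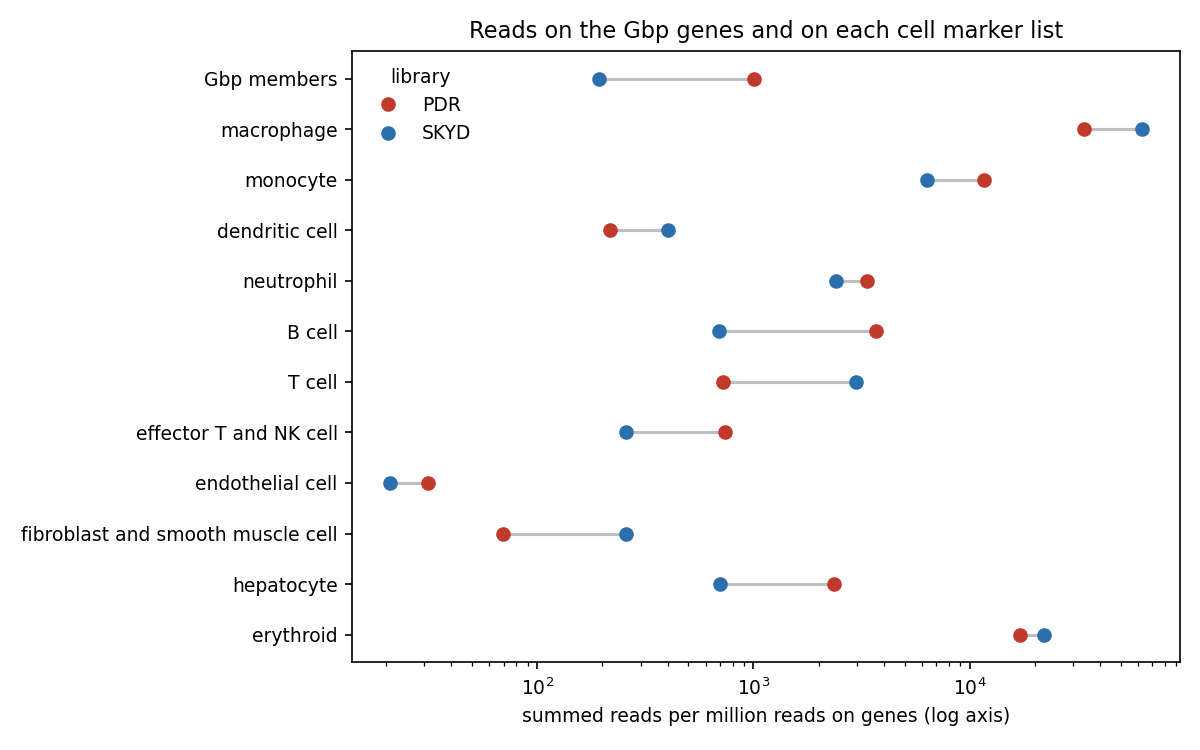
Summed RPM (reads per 1000000 reads on genes, log axis) for the 10 Gbp members and for each cell marker list in the PDR (red) and SKYD (blue) libraries, 1 pooled library each. The Gbp members went from 193 in SKYD to 1006 in PDR, the B cell list from 691 to 3703 and the T cell list from 2981 to 724.

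Of the 10 members, 8 had a mean FPKM of at least 1 over both libraries and were compared with all other such genes. Of these 8, 6 were more than 2-fold higher in PDR on the log2(FPKM + 1) scale, where 7.38% of all 10399 compared genes were. None of the 8 was more than 2-fold higher in SKYD, where 6.91% of all compared genes were. Gbp6 reached the mean of 1 through the PDR library alone, since its FPKM in SKYD was below 1. The median difference of the 8 was 1.42, beside a median of -0.003 over all compared genes. For the 4 compared members on chromosome 3 the median was 2.62, and for the 4 on chromosome 5 it was 1.22. Under a stricter filter, a mean of 5, the medians were 2.35 for the 5 members left, 2.88 on chromosome 3 and 0.70 on chromosome 5. Gbp2b and Gbp4 reached that mean through the PDR library alone, with an FPKM of 1.62 and 2.39 in SKYD. These medians thus rest in part on selection by the PDR level. With no filter on FPKM, 6 of all 10 members were more than 2-fold higher in PDR, where 3.94% of 21718 genes were.

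**Figure D2:**
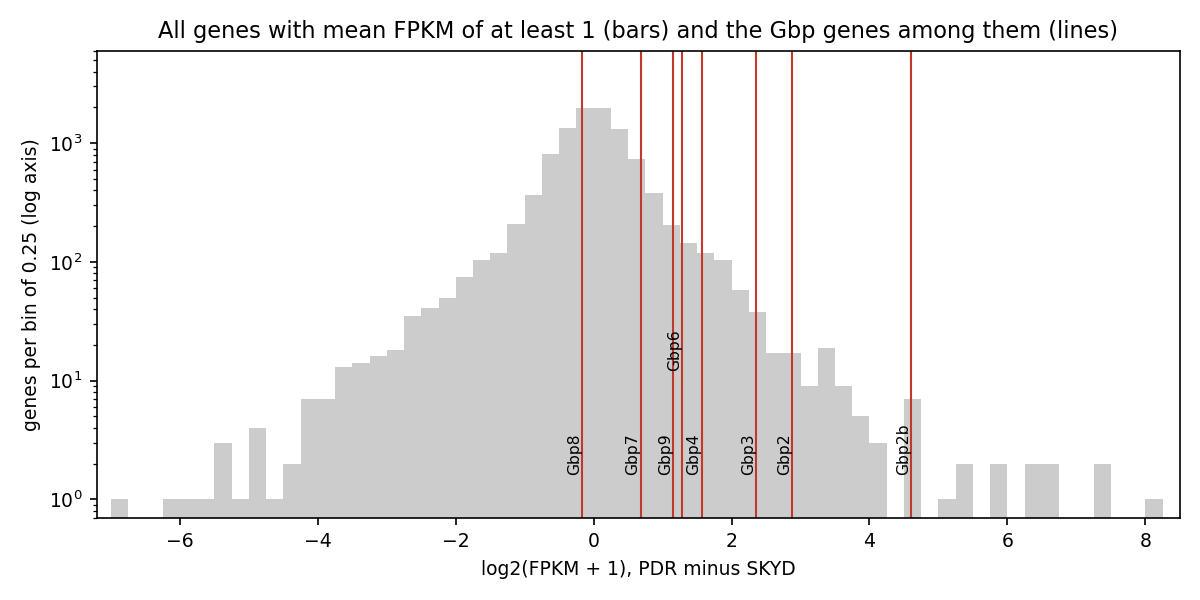
Number of genes (log axis) in bins of the difference in log2(FPKM + 1), PDR minus SKYD, for the 10399 genes with mean FPKM of at least 1, with the 8 compared Gbp members as red lines. Gbp2b stands at 4.60 in the upper tail and Gbp8 stands at -0.17, near the median of all genes.

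Gbp2, Gbp3 and Gbp2b carried most of the family's expression. Gbp2, a CaaX-bearing member that gathers on the vacuoles of intracellular parasites and bacteria, had an FPKM of 130.4 in PDR (95% interval 127 to 133) and 16.8 in SKYD (15.8 to 17.9). It was the highest member in both libraries, and its fold was 7.75 (7.27 to 8.27). Gbp3, its neighbour in the chromosome 3 cluster, had an FPKM of 87.8 in PDR and 16.4 in SKYD, a fold of 5.37 (5.06 to 5.69). In SKYD the levels of Gbp2 and Gbp3 were within each other's counting interval, while in PDR Gbp2 was 1.48 times higher per length.

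Gbp2b, which earlier literature calls Gbp1, differed most between the libraries. Its FPKM was 62.4 in PDR (60.5 to 64.3), from 4138 reads, and 1.62 in SKYD (1.33 to 1.94), from 114 reads. The fold was 38.6 (32.1 to 46.9) and the log2 difference was 4.60, which ranked it 17 among the 10399 compared genes when they were ordered by this difference, from the largest down. The 16 genes above it were 15 immunoglobulin genes and Gapdh, which had 4375 reads in PDR and 77 in SKYD. Gbp2 ranked 73 and Gbp3 ranked 119 in the same order. The interval of the Gbp2b fold lies wholly above those of Gbp2 and Gbp3. Gbp2 exceeded Gbp2b by 2.09 times in PDR and by 10.4 times in SKYD, so this pair of close paralogues, with 76.2% of aligned residues identical, differed in ratio between the libraries. Gbp2b took 19.7% of the family's summed FPKM in PDR and 2.89% in SKYD.

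Gbp7 and Gbp5 were the lowest members of the same cluster in PDR, while in SKYD Gbp7 stood above Gbp2b. Gbp7, a member linked to assembly of the phagocyte NADPH oxidase, had an FPKM of 5.82 in PDR and 3.26 in SKYD. Its fold of 1.79 (1.59 to 2.01) was the smallest on chromosome 3. Its promoter window, printed above, is one of the 2 that hold both motifs. Gbp5, known as a promoter of inflammasome assembly in macrophages, had 1.52 in PDR and 0.38 in SKYD, with 237 and 63 reads. Its mean FPKM was below 1, so it was not among the compared genes, and its fold was 4.0 (3.02 to 5.37).

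On chromosome 5, Gbp8 stood apart from the other members. It had an FPKM of 10.9 in PDR (10.2 to 11.7) and 12.4 in SKYD (11.7 to 13.2), from 884 and 1069 reads. It was the only one of the 10 members higher in SKYD, by 1.14 times (1.04 to 1.24), and its log2 difference was -0.17. This sign held under each pseudocount, filter and scaling tried, with differences from -0.18 to -0.12. Gbp8 was the third highest member in SKYD, where Gbp2 exceeded it by 1.35 times, and in PDR Gbp2 exceeded it by 11.9 times. It took 22.2% of the family's summed FPKM in SKYD and 3.44% in PDR.

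Gbp4 and Gbp9 were higher in PDR by intermediate folds. The FPKM of Gbp4 was 9.02 in PDR and 2.39 in SKYD, a fold of 3.78 (3.40 to 4.21) and a log2 difference of 1.56. The FPKM of Gbp9 was 5.65 in PDR and 1.98 in SKYD, a fold of 2.85 (2.47 to 3.30) and a log2 difference of 1.16. The models of Gbp4, Gbp8 and Gbp9 overlap at their 5′ ends, by 61 exonic bases of Gbp4, 61 of Gbp8 and 60 of Gbp9. This is under 2% of the exonic bases of each.

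Gbp6 and Gbp10 are near-identical copies, and their separate values are uncertain. The FPKM of Gbp6 was 2.78 in PDR and 0.558 in SKYD, a fold of 4.99 (3.93 to 6.40). The FPKM of Gbp10 was 1.02 in PDR, from 93 reads, and 0.134 in SKYD, from 13 reads, a fold of 7.61 (4.24 to 14.8) with a mean FPKM below 1. Their coding sequences translate to 611 residues each, of which 97.7% are identical. Of all windows of 100 bases in their transcripts, 64.5% in Gbp6 and 73.5% in Gbp10 also occur in another gene, mostly in each other and in Gm43302. Gm43302 is a model that begins before Gbp10 and shares exons with both, and it was listed at 0 in both libraries. A read that falls on exons of several genes, or maps to several places, is assigned to none in the default mode of HTSeq, and the mode used is not given in the sources used here. For the other 8 members the shared windows were 10.01% in Gbp7, mostly with the pseudogene Gm43802, which was listed at 0, and at most 4.39% elsewhere.

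**Figure D3:**
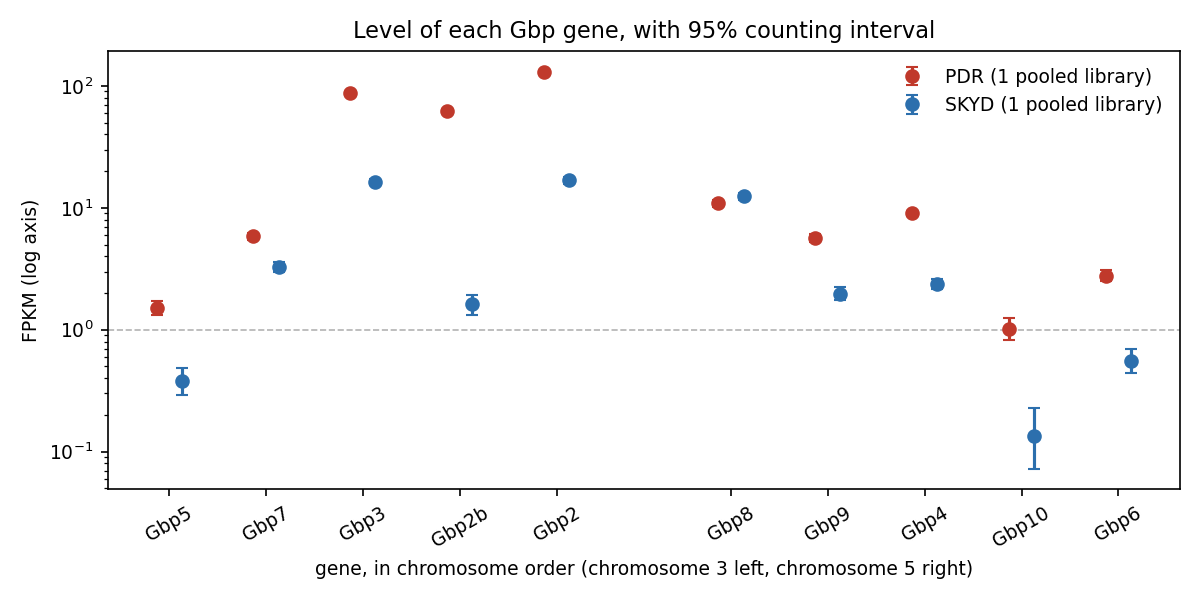
FPKM (log axis) of the 10 Gbp members in the PDR (red) and SKYD (blue) libraries, 1 pooled library each, in chromosome order with 95% counting intervals and a dashed line at an FPKM of 1. Gbp2 is highest in both libraries at 130.4 and 16.8, and for Gbp8 alone the SKYD point, 12.4, lies above the PDR point, 10.9.

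The interval of the fold lay above 1 for 9 of the 10 members and below 1 for Gbp8. The order of the levels differed in part between the libraries. In PDR it ran Gbp2, Gbp3, Gbp2b, Gbp8, Gbp4, Gbp7, Gbp9, Gbp6, Gbp5 and Gbp10, and of the neighbours in this order only Gbp7 and Gbp9 had overlapping counting intervals. In SKYD it ran Gbp2, Gbp3, Gbp8, Gbp7, Gbp4, Gbp9, Gbp2b, Gbp6, Gbp5 and Gbp10. There the intervals overlapped for Gbp2 and Gbp3, for Gbp4 and Gbp9, for Gbp9 and Gbp2b, and for Gbp6 and Gbp5. Gbp2b moved from the third place in PDR to the seventh in SKYD. The highest member exceeded the lowest by 128 times in PDR and by 125 times in SKYD. Gbp2, Gbp3 and Gbp2b together held 88.4% of the family's summed FPKM in PDR and 62.2% in SKYD.

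Protein features were set beside these differences. All 10 translated coding sequences hold the phosphate-binding loop of GTPases, which begins at residue 39 in Gbp3 and at residue 43 or 45 in the others. Gbp2, Gbp2b and Gbp5 end in a CaaX box, and the other 7 do not. The folds of these 3 were 7.75, 38.6 and 4.0. Gbp10, Gbp3 and Gbp6, which lack the box, had folds of 7.61, 5.37 and 4.99, so the folds of members with and without it overlap. Of these, the separate values of Gbp10 and Gbp6 are uncertain. Gbp4, Gbp9, Gbp7 and Gbp8, which also lack it, had folds of 3.78, 2.85, 1.79 and 0.88, all below that of Gbp5. The shortest product was that of Gbp8, with 525 residues, and the longest was that of Gbp7, with 638.

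Genes next to the clusters were compared in the same way. On chromosome 3 the members span 144 kb from 142493978 to 142638008 on GRCm38, all on the plus strand. The 3 members at the far end of this span, Gbp3, Gbp2b and Gbp2, had differences of 2.35, 4.60 and 2.88, and the first 2, Gbp5 and Gbp7, had 0.87 and 0.68. The value of Gbp5 depends on the scale. It was 1.97 with a pseudocount of 0.01, and its fold of 4.0 stood nearer to the 5.37 of Gbp3 than to the 1.79 of Gbp7. The miRNA gene Mir6381 and the pseudogene Gm43802, which lie within Gbp2 and Gbp7, were listed at 0 in both libraries. Within 500 kb outside the members, 4 of 16 genes reached a mean FPKM of 1, and none passed 2-fold on the log2(FPKM + 1) scale. Of all 10399 compared genes, 7.38% passed it toward PDR and 6.91% toward SKYD, so none among 4 genes shows little. The general transcription factor Gtf2b had an FPKM of 42.0 in PDR and 42.5 in SKYD. The differences of the LIM protein Pdlim5 and the kinase Pkn2 were 0.08 and 0.02. Kyat3, a kynurenine aminotransferase, was nearest to 2-fold, with 2.72 in PDR and 1.35 in SKYD, a fold of 2.01 and a difference of 0.66.

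On chromosome 5 the members span 280 kb from 105014150 to 105293698, all on the minus strand. The gene model of Gbp8 reaches the lower end of this span, and those of Gbp9 and, for the most part, Gbp4 lie within its bounds. Outside the members, again 4 of 16 genes reached a mean FPKM of 1 and none passed 2-fold on that scale. Beside the shares of all compared genes, 7.38% toward PDR and 6.91% toward SKYD, these are too few genes to set apart. The transporter gene Abcg3, the compared gene nearest to Gbp8 outside the members, had an FPKM of 6.76 in PDR and 6.78 in SKYD. The zinc finger gene Zfp951 differed by -0.16. On the other side, the volume-regulated channel subunits Lrrc8c and Lrrc8d differed by 0.70 and 0.38. The polymorphic pseudogene Gbp11, which carries the family name without being a member here, had an FPKM of 0.901 in PDR and 0.223 in SKYD, and Gbp2-ps on chromosome 3 was listed at 0 in both.

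**Figure D4:**
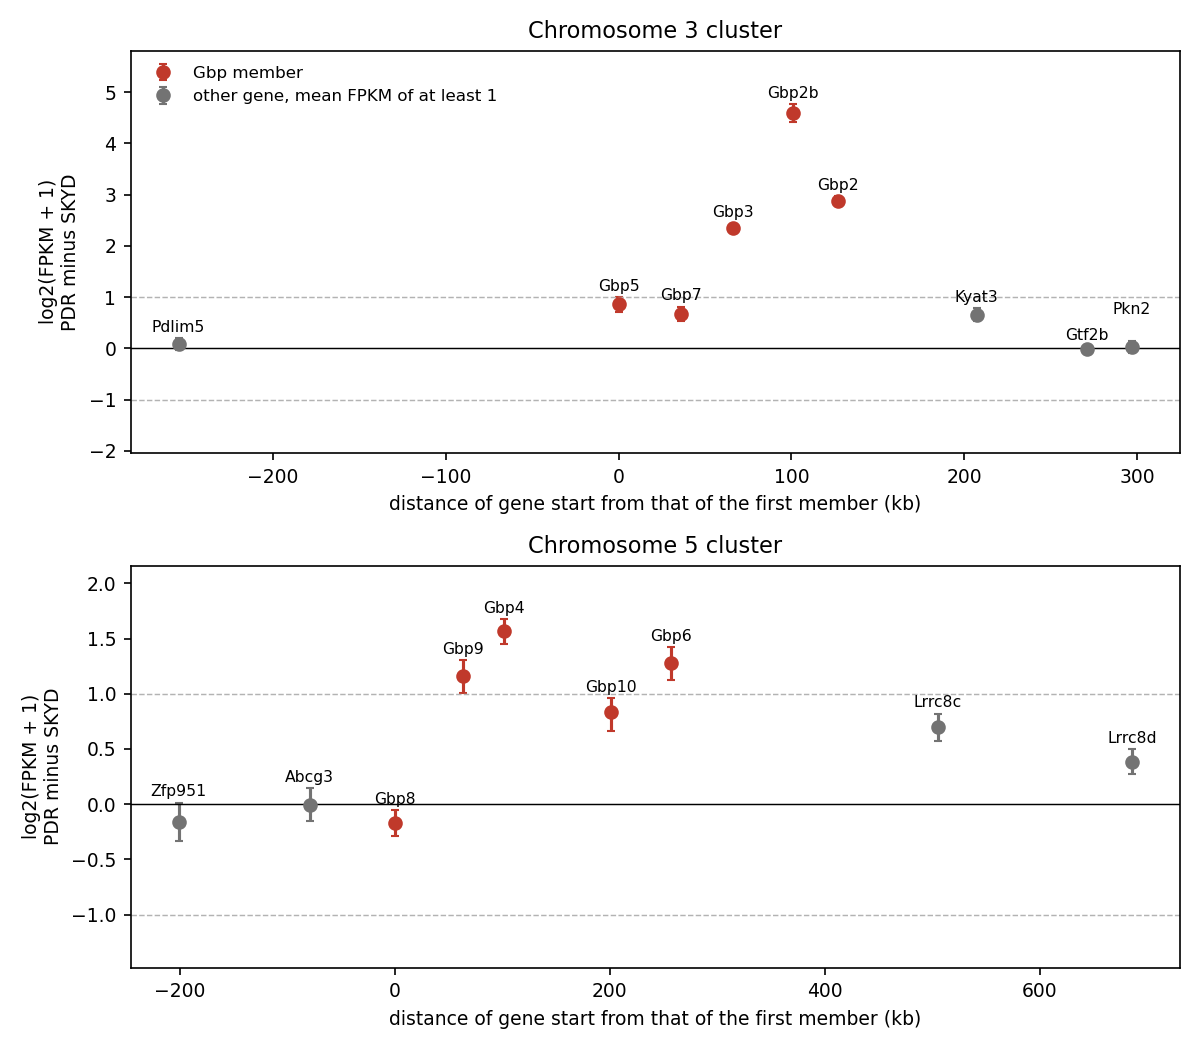
Difference in log2(FPKM + 1), PDR minus SKYD, against the distance of each gene start from that of the first member (kb), for the Gbp members (red) and the other genes with mean FPKM of at least 1 within 500 kb (grey), with 95% counting intervals and dashed lines at 2-fold. Outside the members the points lie between -0.16 and 0.70, and Gbp2b is the highest point at 4.60.

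Genes that induce or accompany the family were taken as lists. Over all 10399 compared genes, 7.38% passed 2-fold toward PDR and 6.91% toward SKYD on the log2(FPKM + 1) scale. Of the 10 genes of interferon gamma signalling, 9 were compared. On the log2(FPKM + 1) scale 3 passed 2-fold toward PDR and none toward SKYD, with a median of 0.31. This median was 0.15 with a mean FPKM of at least 5 and 0.48 as TPM. The receptor chains went in opposite directions, Ifngr1 from an FPKM of 168 in SKYD to 114 in PDR and Ifngr2 from 24.3 to 37.2. The transcription factor Irf1 had the largest difference, 1.79, with an FPKM of 56.6 in PDR and 15.6 in SKYD. The inhibitor Socs1 had the lowest, -0.99, with 5.23 in PDR and 11.3 in SKYD, and by the ratio of FPKM it was 2.17 times higher in SKYD. The cytokine gene Ifng itself, named after its values were seen, had 39 reads in PDR and 6 in SKYD and a mean FPKM below 1.

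Of the 12 genes of type I interferon signalling 7 were compared, and the median was 0.52. Irf7, the inducible regulator of interferon genes, was the single one past 2-fold toward PDR on the log2(FPKM + 1) scale, with an FPKM of 65.6 against 31.4. By the ratio of FPKM the lower gene Stat2, with 3.85 and 1.80, also exceeded 2-fold. The receptor chain Ifnar2 had 27.5 in PDR and 34.4 in SKYD, and Irf3 had 16.9 and 17.5. Ifna1, Ifna2, Ifna4 and Ifna5 had no reads in either library, which allows each at most 1.3e-05% of reads in PDR and 1.18e-05% in SKYD. Ifnb1 had no reads in PDR and 12 in SKYD.

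The immunity-related GTPases, the partner family of the Gbp proteins, were the pathway list with the highest median. Of 15 genes 12 were compared, 10 passed 2-fold toward PDR and none toward SKYD, and the median was 2.04, beside 1.42 for the Gbp members and 2.42 for the B cell markers. F830016B08Rik, 1 of these 10, reached the mean FPKM of 1 through the PDR library alone, with 1.89 there and 0.243 in SKYD. Ifi47 had the highest FPKM, 257 in PDR and 72.0 in SKYD, followed by Igtp with 127 and 39.4 and Gm12250 with 99.4 and 16.7. Iigp1, which coats parasite vacuoles, had the largest difference, 4.08, with an FPKM of 74.1 in PDR and 3.45 in SKYD. Irgc1 had the smallest, 0.22.

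Targets of interferon gamma and of type I interferon had positive medians. Among the 20 genes taken as interferon gamma targets, 16 were compared, 10 passed 2-fold toward PDR and none toward SKYD, with a median of 1.35. The most abundant, the class II invariant chain Cd74, had an FPKM of 5183 in PDR and 5257 in SKYD. The proteasome subunits Psmb8 and Psmb10 differed by 0.93 and 0.68. Acod1, the enzyme that makes itaconate, had the largest difference, 3.90, with 28.9 in PDR and 1.01 in SKYD, and the peptide transporter Tap2 had the lowest, -0.10. Among the 20 type I interferon targets, 17 were compared, 6 passed 2-fold toward PDR and none toward SKYD, with a median of 0.90. Mx1, 1 of these 6, had an FPKM below 1 in SKYD. Oas1a, Rtp4 and Isg15 were the most abundant and differed by 0.13, 0.90 and 0.17. Ifit3 had the largest difference, 1.87, with an FPKM of 54.8 in PDR and 14.3 in SKYD.

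The remaining lists had medians near 0 among genes with mean FPKM of at least 1. With a mean of at least 5, the medians were -0.25 for ATG8 conjugation and -0.55 for the other dynamin-like GTPases. In lists this short, the few genes past 2-fold cannot be set apart from the shares of all compared genes. Those shares were 7.38% toward PDR and 6.91% toward SKYD. None of the 11 compared ATG8 conjugation genes differed by more than 2-fold either way, and their median was -0.12. Gabarap had an FPKM of 242 in PDR and 254 in SKYD, Gabarapl2 had 56.2 and 74.2, and Map1lc3b had 45.3 and 62.7. The extremes of this list were Map1lc3a at -0.92 and Atg10 at 0.50. None of the 5 compared CaaX processing genes differed by more than 2-fold. Their median was 0.12 and turned negative with no filter on FPKM, with a mean FPKM of at least 5 and as TPM. Fnta differed by 0.12, Rce1 by -0.32 and Zmpste24 by 0.40.

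Of the 8 compared inflammasome partners none was more than 2-fold higher in PDR and 1 was in SKYD, with a median of 0.04. That gene was Ninj1, which ruptures the membrane of dying cells, with an FPKM of 178 in PDR and 455 in SKYD. Casp1 had the largest positive difference, 0.89, with 233 and 125, and the adaptor Pycard had 139 and 178. Of 9 compared genes among the other dynamin-like GTPases, 1 was more than 2-fold higher in SKYD and none in PDR, with a median of -0.14. Atl2 differed by -1.05, Ehd1 by -0.95, Dnm2 by -0.14, Ehd4 by 0.02 and Atl3 by 0.55.

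**Figure D5:**
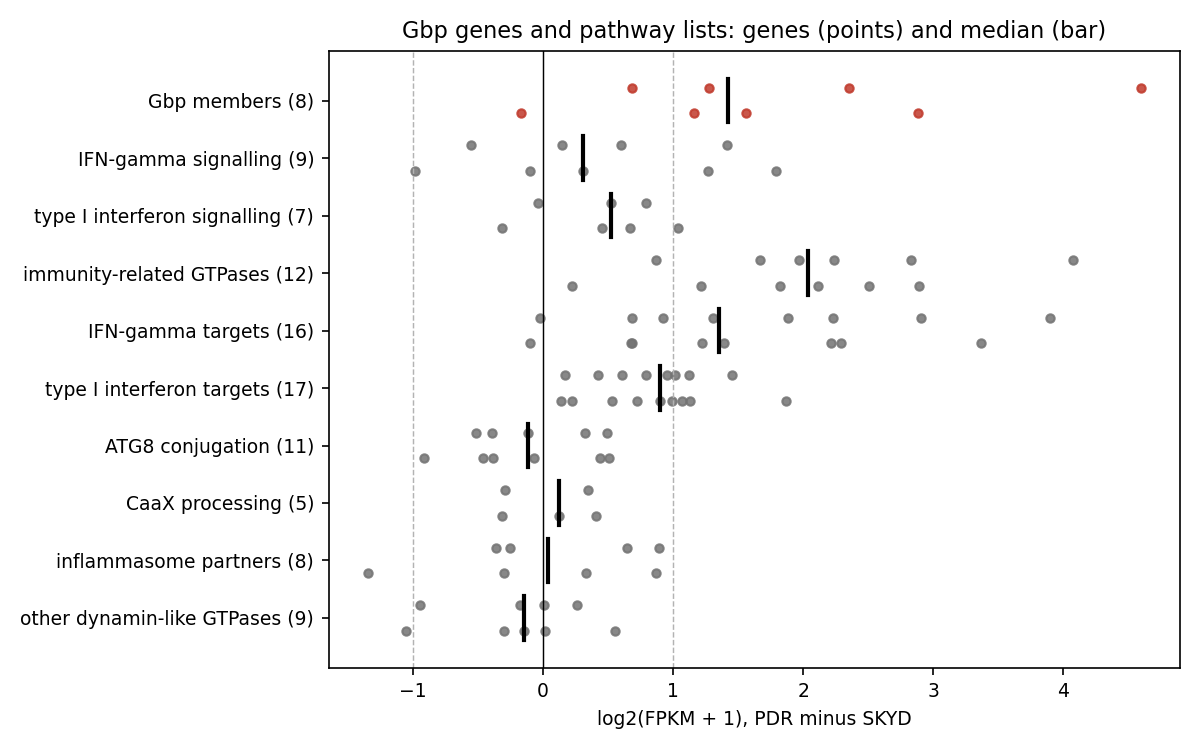
Difference in log2(FPKM + 1), PDR minus SKYD, of each gene with mean FPKM of at least 1 (points, number in brackets) in the Gbp family and in 9 pathway lists, with the median as a black bar and dashed lines at 2-fold. The medians of the Gbp members, 1.42, the immunity-related GTPases, 2.04, and the interferon gamma targets, 1.35, lie above 1, and those of the other lists lie below 1.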

How the data were processed

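Each group gave 1 RNA library from sorted aortic cells of 5 pooled mice. Reads were filtered by the authors, who aligned them with TopHat2 2.0.9 and Bowtie2 2.0.6, counted them per gene with HTSeq 0.6.1 and deposited FPKM. The processing notes name mm9, whereas 98.3% of the 54409 genes shared with GENCODE vM21 have its GRCm38 positions, among them all 10 members. Library sizes of 23487992 (PDR) and 24993633 (SKYD) were set from the step that 1 read gives, and they made all values above 0 whole reads within 0.01 read. The size for PDR is above the sum of its reads and that for SKYD below, so the deposited FPKM carry a scaling between the libraries, and rescaling to the summed reads was one of the alternatives.

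Members and lists were chosen with earlier results of these data known. Differences used a pseudocount of 1 and genes with mean FPKM of at least 1. Intervals of folds and shares are exact Clopper-Pearson, those of levels exact Poisson, and the limit for no reads is 3 reads. Named genes were all members, cluster genes with mean FPKM of at least 1, from each pathway list the 3 most abundant and the extremes, and the most abundant marker of each cell list. The planned list of genes nearest the members' median is not reported here. Genes named outside this rule were chosen after their values were seen. Shared sequence was counted as identical windows of 100 bases in GENCODE transcripts. Coding sequences were translated from the same annotation, taking the longest of each gene. Steps were tested on simulated data. The tools were Biopython 1.88, matplotlib 3.10.9, scipy 1.17.1, pandas 2.3.3, numpy 2.4.6 and Python 3.11.15.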

Additional observations from a re-analysis of the deposited data

How the results depend on the processing

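No member was more than 2-fold higher in SKYD under any alternative, and 4 to 7 were in PDR at 2-fold. The 7 were found as TPM, where Gbp5 entered with a difference of 1.12. Its FPKM was 1.52 in PDR and only 0.38 in SKYD. At 2-fold, the share of all compared genes higher in PDR ran from 3.94% with no filter to 10.5% with a pseudocount of 0.01. As TPM this share was 8.74%. The sign of each single member was kept in all 75 alternatives that gave it a value, and 19 values moved, all with a lower pseudocount or as TPM. Differences ran from 4.60 to 5.26 for Gbp2b, 1.56 to 1.91 for Gbp4, 0.87 to 1.97 for Gbp5, 1.28 to 2.30 for Gbp6, 0.68 to 0.84 for Gbp7, 1.16 to 1.51 for Gbp9 and 0.83 to 2.84 for Gbp10.

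These values of the family, its clusters and all genes moved. A pseudocount of 0.1 gave medians of 2.003 for the members and 1.67 for those on chromosome 5, and a pseudocount of 0.01 gave 2.11 and 1.71. With no filter on FPKM the medians were 1.22 for the members and 2.35 on chromosome 3. With a mean FPKM of at least 5 they were 2.35 for the 5 members left, 2.88 on chromosome 3 and 0.70 on chromosome 5. Of the 5, Gbp2b and Gbp4 passed this filter through PDR alone. Under it 464 of all genes were higher in PDR and 373 in SKYD, from fewer genes tested. As TPM the medians were 1.55 for the members, 2.39 on chromosome 3 and 1.42 on chromosome 5, and Gbp5 entered the comparison. A 4-fold threshold left 3 members and 194 of all genes higher in PDR and 216 in SKYD. Among protein-coding genes alone 473 were higher in SKYD. The count higher in PDR fell as well, from 767 to 542, but was not among those taken as moved. The family took 0.113% of protein-coding reads in PDR and 0.0206% in SKYD, and 0.116% and 0.0211% without haemoglobin, immunoglobulin and mitochondrial reads. Beyond what each setting does by construction, the cause was not tested.

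Of the 72 alternatives of list medians, 69 kept their direction, and the other 3 were of CaaX processing. In all, 17 moved. Medians ran from 1.82 to 2.43 for the immunity-related GTPases, from 1.17 to 1.51 for interferon gamma targets and from 0.76 to 1.05 for type I interferon targets, each lowest with no filter and highest with a pseudocount of 0.01. That of interferon gamma signalling ran from 0.15 with a mean FPKM of at least 5 to 0.48 as TPM, and that of inflammasome partners was 0.16 with no filter. With a mean FPKM of at least 5, ATG8 conjugation had -0.25 and the other dynamin-like GTPases -0.55. The depth limits Gbp10 most, with 13 reads in SKYD. Reads shared by Gbp6 and Gbp10 limit both.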
